A study of Mus musculus with 620 samples.

Results

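Frontal cortex of aged mice given short-term exenatide was compared with frontal cortex of aged control mice by bulk RNA sequencing. Exenatide is a peptide drug that activates GLP-1R, the receptor for the gut hormone GLP-1, and lowers blood glucose and food intake. The comparison rests on the 10 libraries of the ST cohort whose titles give frontal cortex as the tissue and ST_A_Ex (aged, exenatide, n = 5 mice) or ST_A_ctrl (aged control, n = 5 mice) as the group, out of 620 libraries from 72 mice in the series. The other ST frontal cortex groups, each n = 5, were ST_A_ctrl_KD and ST_A_Ex_KD (aged mice with knockdown of GLP-1R in the hypothalamus, without and with exenatide), ST_A_rapa (aged mice given the mTOR inhibitor rapamycin) and ST_Y_ctrl (young controls). Frontal cortex was also sequenced from aged mice of the LT cohort (8 LT_A_Ex and 8 LT_A_ctrl) and from the YA cohort (8 YA_Ex and 8 YA_ctrl). Strain, sex, ages, doses, lengths of treatment, vehicle and the means of knockdown are not stated in the labels used. Below, control 1 to 5 and exenatide 1 to 5 name single mice, values are listed in that order, and the numbers pair no animals.

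The 10 libraries held 23.3 M to 26.4 M estimated counts in total (median 24.3 M), and log2 expression correlated between pairs of them across genes at r = 0.9821 to 0.9921. The dissections carried the markers of cortex rather than hippocampus: Cux2, a transcription factor of upper-layer cortical neurons, had a mean level of 94 CPM (counts scaled to a common library total), against 27.8 in hippocampus of the same mice, while Dsp and C1ql2, genes of dentate granule cells, stood at 0.858 and 0.475, against 68.7 and 96.7. Striatal tissue was present as well. Drd2 and Adora2a, receptors of striatal projection neurons, had means of 57.4 and 49.8 CPM in cortex and 2.71 and 1.9 in hippocampus, and the summed level of 13 striatal genes ranged from 1430 to 1830 CPM in controls and from 1280 to 2110 with exenatide. Choroid plexus RNA was low (Ttr, mean 4.84 CPM). All p-values measure the spread between mice as labelled.

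GLP-1R is a receptor coupled to cyclic AMP. In the brain it is expressed mainly in hypothalamus and hindbrain and in scattered neurons elsewhere, and GLP-1R agonists are known to activate the hypothalamic, pituitary and adrenal stress axis in rodents. Glucocorticoid released by that axis reaches the cortex and acts through a nuclear receptor that binds DNA and raises a set of target genes, of which Fkbp5 and Tsc22d3 are among the best known. Immediate early genes such as Egr1 and Nr4a3 are transcribed within minutes of neuronal firing and are read as a record of recent activity.

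Few genes passed the test in aged frontal cortex. Fkbp5 and Plin4 rose, and Nr2e1, Trib2 and Lrp8 fell. These were the 5 genes called among 18227 tested (0.0274%), with edgeR's quasi-likelihood test and a Benjamini-Hochberg adjusted p under 0.05. In each of the 5, the exenatide and control mice did not overlap. Over all genes tested, 484 (2.66%) had groups that did not overlap, 2925 (16%) had an unadjusted p under 0.05, and the median log2 fold change was 0.

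Fkbp5 encodes a co-chaperone of HSP90 that lowers the affinity of the glucocorticoid receptor for its hormone, and it is itself a target of that receptor. The 5 control mice had 25.7, 25.5, 24.6, 27.8 and 25 CPM, and the 5 exenatide mice had 41.3, 36.3, 38.1, 38.3 and 36.5 CPM. Every exenatide mouse lay well above the highest control, and the groups were each tight. The log2 fold change was 0.57 ± 0.09 (SE), a 1.48-fold rise (edgeR adjusted p = 0.00381). Fkbp5 ranged from 29.8 to 34.9 CPM in rapamycin mice and from 24.9 to 33.5 CPM in young controls, all below the exenatide mice. Knockdown controls, given no exenatide, ranged from 26.1 to 36.9 CPM, and the highest of them lay above exenatide 2 and exenatide 5.

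Plin4 encodes perilipin 4, a protein that coats lipid droplets. Its levels were 3.57, 2.74, 2.21, 4.05 and 2.42 CPM in controls and 13.9, 7.81, 17.1, 12.6 and 12.5 CPM with exenatide. The lowest exenatide mouse, exenatide 2, was still above the highest control. The rise was 4.27-fold (log2 2.09 ± 0.38 SE, edgeR adjusted p = 0.0361). It was the largest among the 5 called genes. Plin4 varied more between mice than Fkbp5 did: it reached 11 CPM in 1 rapamycin mouse and 6.18 CPM in 1 young control.

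Nr2e1 encodes TLX, an orphan nuclear receptor known for keeping neural stem cells undifferentiated. It stood at 19.6, 19.4, 19.7, 21.9 and 20.3 CPM in controls and at 11.1, 13.3, 15.2, 15.1 and 14.7 CPM with exenatide. The controls were close together and all above every exenatide mouse. Nr2e1 fell by 0.54 on the log2 scale (SE 0.09, edgeR adjusted p = 0.0155). The aged controls also lay above all 5 young controls (14.6 to 19.2 CPM) and all 5 rapamycin mice (14.2 to 17.5 CPM).

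Trib2 encodes a tribbles pseudokinase, an adaptor that brings substrates to a ubiquitin ligase. Control levels were 42, 49.2, 34.3, 46.1 and 45.1 CPM, and exenatide levels were 28.4, 31.1, 29.3, 32.5 and 31.2 CPM. Control 3 was the lowest control and came within 2 CPM of the highest exenatide mouse. Trib2 fell by 0.51 on the log2 scale (SE 0.09, edgeR adjusted p = 0.0193).

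Lrp8 encodes the apolipoprotein E receptor 2, through which reelin signals to neurons. It had 125, 122, 111, 115 and 117 CPM in controls and 96.1, 100, 108, 90.7 and 91.9 CPM with exenatide. Exenatide 3, at 108, came closest to the controls. Rapamycin mice, at 99.6 to 109 CPM, also lay below all aged controls. Knockdown controls, given no exenatide, had 103 to 114 CPM, and young controls had 111 to 124. The fall of 0.28 on the log2 scale (SE 0.05) was the smallest of the 5 and the nearest to the threshold (edgeR adjusted p = 0.043).

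**Figure D1:**
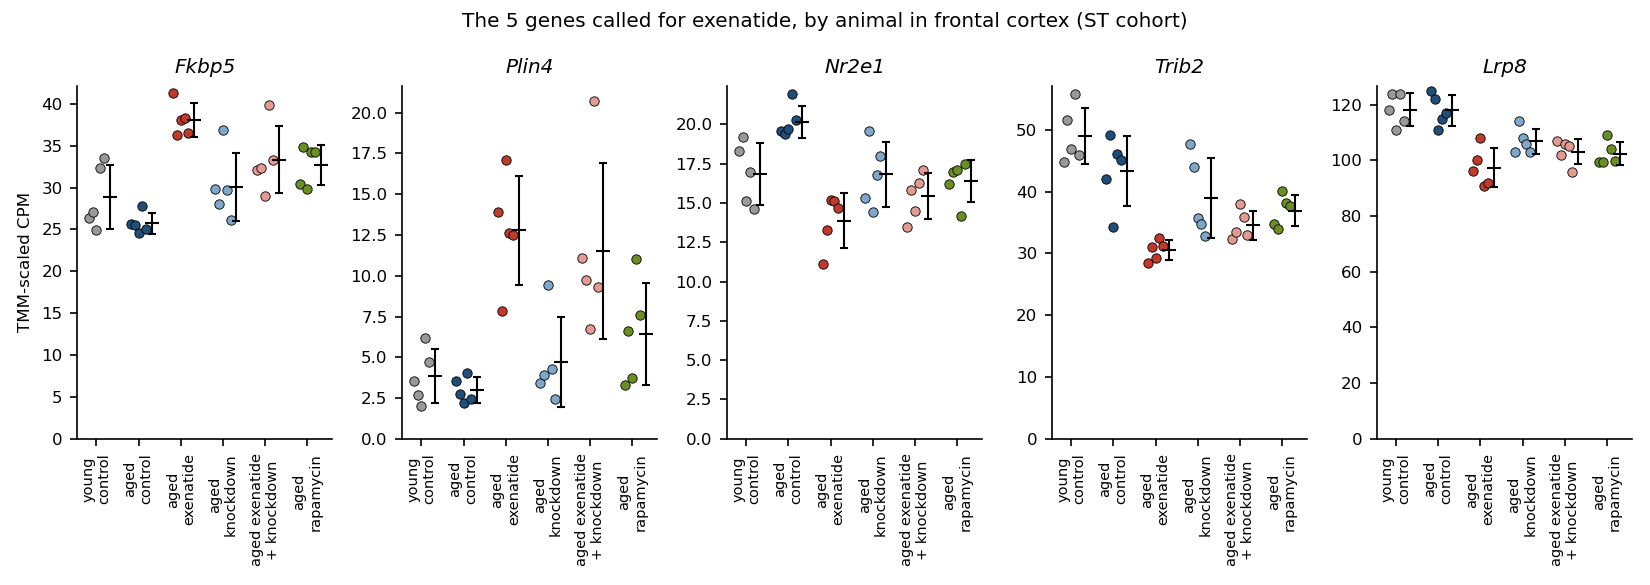
TMM-scaled CPM of Fkbp5, Plin4, Nr2e1, Trib2 and Lrp8 in each mouse (points) of the ST frontal cortex groups, with the mean and SD as bars and the vertical axis starting at 0. The 5 exenatide mice lie above all 5 aged controls for Fkbp5 (36.3 to 41.3 against 24.6 to 27.8) and Plin4, and below them for Nr2e1, Trib2 and Lrp8.

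The number of calls turned on single mice. Fkbp5 passed the threshold in all 10 fits that left out 1 mouse (edgeR adjusted p = 0.00635 to 0.0338). Nr2e1 passed in 8 of the 10 (not without control 4 or exenatide 1), Trib2 in 6 (not without control 2 or 4, or exenatide 1 or 5), and Plin4 and Lrp8 in 3 each (without control 3, exenatide 2 or exenatide 3). Without exenatide 3 the count was 307, without control 3 it was 151, and each of those counts included all 5 genes. It was 8 without control 5 and 7 without exenatide 2. It was 3 without control 1 or exenatide 4, 2 without control 2 or exenatide 5, and 1 without control 4 or exenatide 1. DESeq2 called 212 genes, and a fit limited to the 10 libraries called 14. The direction of each of the 5 genes was the same in all 17 alternative fits.

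The sequence just upstream of the start site is shown for the 2 genes that rose and for Nr2e1, since Fkbp5 and Plin4 both stand in the list of glucocorticoid-responsive genes and moved together, and Nr2e1 moved the other way. The 250 bases come from RefSeq's GRCm38.p6 tables, and their coordinates are of that build, while the counts were made on GRCm39. Capitals mark matches on either strand, which may overlap, to any of these motifs. AGAACA is the core of a glucocorticoid receptor site. TGACGTCA is the cyclic AMP response element. CACGTG is an E-box. GGGCGG is the core bound by Sp1. The CCAAT box is named for its letters.
Fkbp5, chr17:28486150-28486399, minus strand: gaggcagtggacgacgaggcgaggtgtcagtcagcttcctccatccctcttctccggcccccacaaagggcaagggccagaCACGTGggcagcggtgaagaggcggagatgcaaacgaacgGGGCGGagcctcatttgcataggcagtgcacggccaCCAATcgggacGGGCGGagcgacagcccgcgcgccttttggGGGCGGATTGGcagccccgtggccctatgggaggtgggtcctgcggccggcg
Plin4, chr17:56109783-56110032, minus strand: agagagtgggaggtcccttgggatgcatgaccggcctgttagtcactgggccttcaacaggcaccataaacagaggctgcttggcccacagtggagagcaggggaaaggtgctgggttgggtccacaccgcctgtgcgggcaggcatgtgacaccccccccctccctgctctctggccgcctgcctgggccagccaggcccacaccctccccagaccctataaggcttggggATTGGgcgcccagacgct
Nr2e1, chr10:42583591-42583840, minus strand: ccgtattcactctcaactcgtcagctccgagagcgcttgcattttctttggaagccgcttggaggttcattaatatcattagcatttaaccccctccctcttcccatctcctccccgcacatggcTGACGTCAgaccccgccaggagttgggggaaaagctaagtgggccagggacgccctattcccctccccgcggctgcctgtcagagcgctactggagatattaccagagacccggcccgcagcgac

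The Fkbp5 window held 1 E-box, 3 Sp1 cores and 2 CCAAT boxes, of which the one nearer the start is on the other strand and adjoins an Sp1 core. The Plin4 window held 1 CCAAT box, also on the other strand. The Nr2e1 window held 1 cyclic AMP response element, which lies 125 bases before the start. Of 32851 windows of this length, 1.55% held the cyclic AMP response element, 6.02% the E-box, 32.7% the Sp1 core, 33.8% the CCAAT box and 16.1% the glucocorticoid receptor core. The glucocorticoid receptor core was in neither the Fkbp5 nor the Plin4 window, which says only that these letters are not in those bases. It was in 1 of the 3 windows of Lrp8, a gene that fell, and the Trib2 window held 2 Sp1 cores and no other of these motifs.

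Beyond the 5 called genes, 89 genes (0.488%) had an adjusted p under 0.1, 26 higher and 63 lower. The next genes by p are given as values. Among those higher were Sun2, which ties the nucleus to the cytoskeleton (log2 0.44 ± 0.09 SE, edgeR adjusted p = 0.0609), Cbx8, a Polycomb subunit (0.72 ± 0.16, adjusted p = 0.0698), Stab2, a scavenger receptor for hyaluronan (1.35 ± 0.30, adjusted p = 0.0698), and Arrdc2, an arrestin-domain protein (0.47 ± 0.11, adjusted p = 0.0845). In all 4 the groups did not overlap. Sun2, for example, was 40.6 to 46.3 CPM in controls and 48.1 to 69.6 with exenatide. The aged knockdown controls, given no exenatide, also lay above all aged controls in each of these 4 genes. They had 48.3 to 58.8 CPM of Sun2, 2.86 to 3.48 of Cbx8, 0.563 to 0.947 of Stab2 and 8.48 to 10.3 of Arrdc2. For Cbx8, the rapamycin mice (2.65 to 3.63 CPM) and the young controls (2.85 to 3.65 CPM) did too. Among those lower, each with an edgeR adjusted p of 0.0609, were Ddah1, which degrades an inhibitor of nitric oxide synthase (log2 -0.28 ± 0.06 SE), Soat1, which esterifies cholesterol (-0.38 ± 0.08), and Lrch3, a leucine-rich repeat protein (-0.33 ± 0.07). Soat1 was 30 to 36.4 CPM in controls and 23.6 to 26.8 with exenatide. Lrch3 overlapped through exenatide 3, at 76.2 CPM, above control 5 at 75.3.

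**Figure D2:**
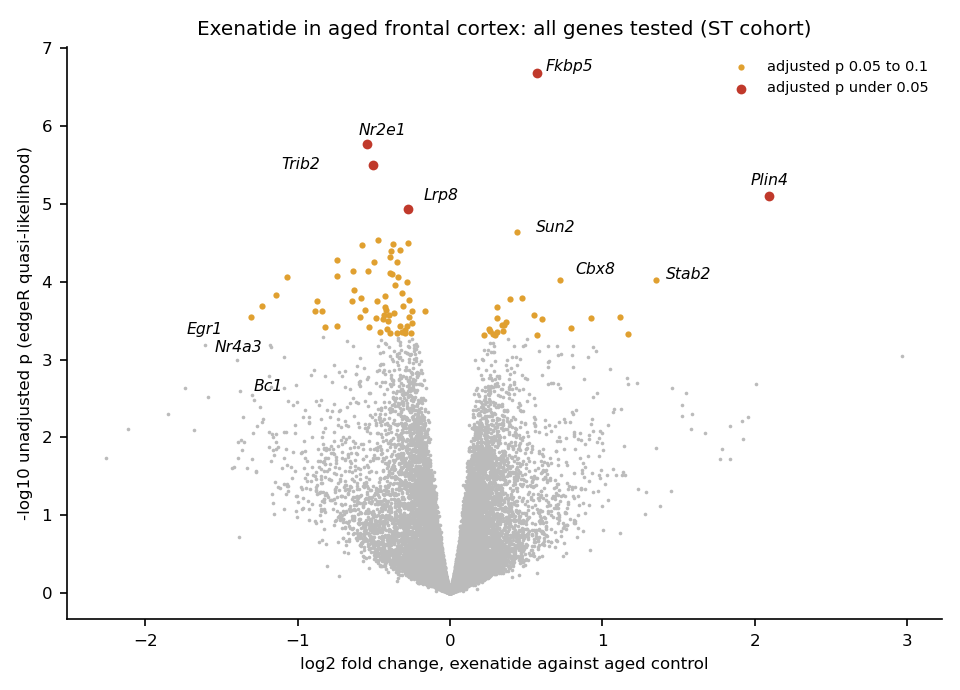
Each point is 1 of 18227 genes, with the log2 fold change of exenatide against aged control on the horizontal axis and -log10 of the unadjusted p on the vertical axis. Red points are the 5 genes with an adjusted p under 0.05 and orange points those between 0.05 and 0.1; Plin4 lies at 2.09 among the called genes, and Egr1 and Nr4a3, at -1.61 and -1.39, lie to the left below the orange points.

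The listed genes that respond to glucocorticoid had a positive median. This list was chosen with earlier results of these data known, so its counts are no independent result. Of 21 tested, edgeR called 2 higher, Fkbp5 and Plin4 (0.011% of all genes), none was called lower, and 6 were higher at an unadjusted p under 0.05, as were 7.6% of all genes. The groups did not overlap for 4 of them, all higher (Fkbp5, Plin4, Arrdc2 and Tsc22d3), as for 1.25% of all genes. Tsc22d3 encodes GILZ, which mediates anti-inflammatory effects of glucocorticoid. It had 38.9, 34.1, 34.6, 39.7 and 36.5 CPM in controls and 47.6, 43, 46.6, 53.4 and 43.8 CPM with exenatide, a log2 difference of 0.35 ± 0.12 SE that did not pass (edgeR adjusted p = 0.16). Arrdc2 was called by DESeq2 (adjusted p = 0.0163), and by edgeR without control 3 or exenatide 3 (adjusted p = 0.0415 and 0.0419). Plin4 was not called by edgeR without the filter on low counts. The list's median was 0.17, and it was 0.06 without exenatide 3 and 0.10 without exenatide 4.

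Immediate early genes mostly had negative differences, and whether any was called depended on the fit. Egr1, Nr4a3, Homer1 and Bdnf were each lower in all 5 exenatide mice than in 4 of the 5 controls, with control 3 the exception. Of 27 tested, 25 had a negative log2 fold change, 14 were lower at an unadjusted p under 0.05 (8.45% of all genes were) and none was higher. The median was -0.42. The number lower was 9 without control 4. None was called by edgeR, 4 were called lower by DESeq2 (Egr1, Nr4a3, Homer1 and Bdnf), and 5 were called lower by edgeR without control 3 (the same 4 and Npas4). Without exenatide 3, edgeR called Homer1 and Npas4 (adjusted p = 0.0471 and 0.0499), and the fit with trends on transcript length and GC content removed called Egr1 (adjusted p = 0.05, rounded). The groups did not overlap for 1 gene, Egr2, which was chosen after its values were seen, as was Npas4.

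Egr1, a zinc-finger transcription factor induced by firing, showed the pattern most plainly. It had 329, 324, 96, 331 and 313 CPM in controls and 81.8, 88.2, 80.9, 122 and 85 CPM with exenatide. Control 3 fell among the exenatide mice, and the other 4 controls were all more than 300 CPM. The log2 difference was -1.61 ± 0.41 SE (edgeR adjusted p = 0.103), and -1.83 without control 3 (adjusted p = 0.0311). Nr4a3, an orphan nuclear receptor, was 37.9, 45.8, 17.5, 52 and 44.9 CPM in controls and 13.6, 14.9, 15.5, 19.2 and 12 with exenatide. Its log2 difference was -1.39 ± 0.37 SE (edgeR adjusted p = 0.108), and -1.58 without control 3 (adjusted p = 0.0417). The same mouse was again the low control.

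Homer1 encodes a postsynaptic scaffold whose short form is induced by activity. It was 415, 377, 234, 346 and 334 CPM in controls and 247, 257, 279, 202 and 241 with exenatide (log2 -0.48 ± 0.13 SE, edgeR adjusted p = 0.103, and -0.59 with adjusted p = 0.0165 without control 3). Bdnf, a neurotrophin, was 28.9, 32.3, 17.4, 29 and 34.8 CPM in controls and 18.8, 18.8, 22, 18.6 and 18.3 with exenatide (log2 -0.56 ± 0.16 SE, edgeR adjusted p = 0.119, and -0.70 with adjusted p = 0.0229 without control 3). In all 4 genes control 3 lay inside or near the exenatide range and the other controls above it.

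Among clock genes, Dbp and Bhlhe40 set control 3 apart, while Per2 and Clock did not. Dbp, a clock output transcription factor whose level follows the time of day, was 28.1, 31.1, 63.4, 36.7 and 36.8 CPM in controls and 58.7, 45.9, 48, 88.4 and 65.7 CPM with exenatide. Control 3 was again the mouse that fell among the exenatide values, here on the high side. The log2 difference of Dbp was 0.65 ± 0.27 SE (edgeR adjusted p = 0.236). Per2, a repressor of the clock, differed by -0.56 ± 0.19 SE (adjusted p = 0.168), Clock by -0.25 ± 0.10 (adjusted p = 0.218) and Bhlhe40 by -0.27 ± 0.10 (adjusted p = 0.196). Of 20 clock genes tested none was called by edgeR or DESeq2, 2 were higher and 5 lower at an unadjusted p under 0.05, and the median was -0.03 (0.02 with the length and GC trends removed). Without control 1, none was higher and 2 were lower. With all 10 mice, 7.6% of all genes were higher and 8.45% lower at that limit. The labels used do not state the time of tissue collection, and its part in the values of Egr1 and Dbp was not tested.

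**Figure D3:**
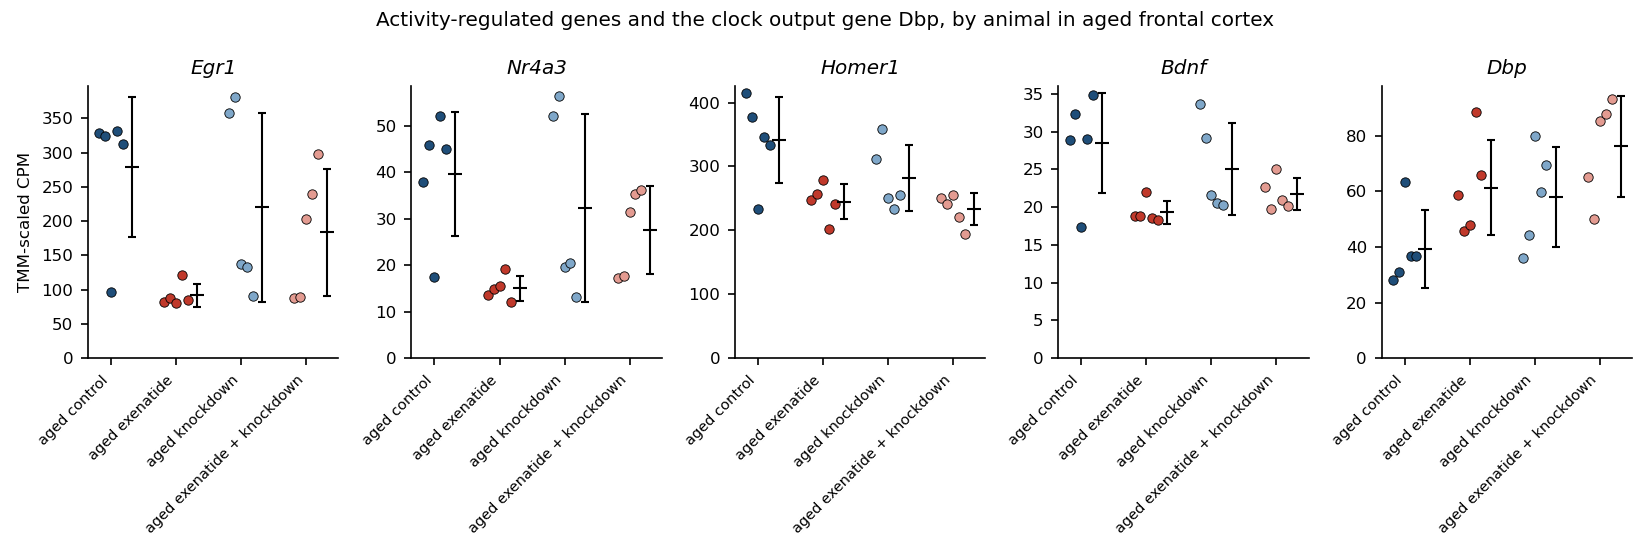
TMM-scaled CPM of the activity-regulated genes Egr1, Nr4a3, Homer1 and Bdnf and of the clock output gene Dbp in each mouse (points), in aged groups with and without exenatide and with and without hypothalamic knockdown, with mean and SD bars, on axes from 0. Control 3 is the single aged control at 96 CPM of Egr1 and at 63.4 CPM of Dbp; with knockdown, both groups spread from about the lowest to the highest Egr1 levels.

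Genes of energy metabolism mostly had small positive differences, and edgeR called none with all 10 mice in the fit. Of 42 nuclear genes for oxidative phosphorylation, 41 had a positive log2 fold change, 18 were higher at an unadjusted p under 0.05 and none lower. Of all genes, 49.9% had a positive log2 fold change and 7.6% were higher at that limit. The list's median was 0.15, and DESeq2 called none of it either. Its summed level had a median of 4590 CPM in aged controls and 5110 with exenatide. Groups without exenatide stood near the latter, at 5090 in knockdown controls, 5320 with rapamycin and 5110 in young controls. Sdha, the catalytic subunit of complex II, was 303, 313, 282, 293 and 325 CPM in controls and 371, 328, 314, 370 and 335 with exenatide (log2 0.18 ± 0.06 SE, edgeR adjusted p = 0.149). Exenatide 3 had the lowest of the exenatide values and lay among the controls. Atp5a1 and Atp5pb, of the ATP synthase, and Ndufv1, of complex I, differed by 0.14 ± 0.05, 0.20 ± 0.07 and 0.18 ± 0.07 SE on the log2 scale (edgeR adjusted p = 0.168, 0.178 and 0.183).

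Transcript length and base composition moved with these differences. The genes higher at an unadjusted p under 0.05 had a median transcript length of 2666 bases and a GC content of 53.3%. Those lower had 4495 bases and 46.2%, beside 3278 bases and 49.7% for all genes tested that had a length. Lengths, of each gene's longest GENCODE transcript, were found for 16235 of the 18227 genes tested (94.1% of those higher and 85.3% of those lower). The oxidative phosphorylation genes had a median of 1232 bases. With each library's trend on length and GC content removed, their median was 0.11, and 11 of 42 were higher at an unadjusted p under 0.05. Without that removal, the number higher was 7 without exenatide 4, 11 without exenatide 1 and 26 without exenatide 3. The fit with the trends removed called 88 genes in all, 24 higher and 64 lower. Genes without a length were tested in it but not corrected.

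Of 20 glycolysis genes, 9 were higher and 1 lower at an unadjusted p under 0.05, with a median of 0.12 and none called by edgeR. The number higher was 4 without exenatide 4, 5 without exenatide 1, and 5 with the length and GC trends removed, where the median was 0.07. Of all genes, 7.6% were higher and 8.45% lower at that limit. The summed level of the list had a median of 8140 CPM in aged controls and 9080 with exenatide. It was 9310 in knockdown controls, 9020 with rapamycin and 8880 in young controls. Pgk1, Pfkm and Eno2, enzymes of the pathway, differed by 0.22 ± 0.07, 0.21 ± 0.07 and 0.15 ± 0.05 SE on the log2 scale (edgeR adjusted p = 0.139, 0.147 and 0.168). The lower gene was Pfkfb3, which makes the activator of phosphofructokinase. It was 52.4, 47.4, 35.6, 52.7 and 46.8 CPM in controls and 36.3, 34.4, 38.8, 36.2 and 32.8 with exenatide (log2 -0.40 ± 0.11 SE, edgeR adjusted p = 0.12). As with Egr1, control 3 was the low control. Pfkfb3 was the single member called by DESeq2 (adjusted p = 0.0493), and edgeR called it without control 3 (adjusted p = 0.0322).

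Of 23 cholesterol synthesis genes, 20 had a positive log2 fold change, 9 were higher at an unadjusted p under 0.05, none was lower, and none was called by edgeR or DESeq2. The median was 0.10, and the number higher was 4 without exenatide 1 and 6 without control 1. Of all genes, 49.9% had a positive log2 fold change, 7.6% were higher and 8.45% lower. Insig1, which holds the sterol sensor in the endoplasmic reticulum, was 80.3, 81.6, 92.8, 85 and 83.8 CPM in controls and 103, 113, 93.1, 100 and 96.1 with exenatide (log2 0.25 ± 0.08 SE, edgeR adjusted p = 0.131). Control 3 and exenatide 3 nearly met at 92.8 and 93.1. Fdft1, squalene synthase, and Acat2 and Fdps, earlier enzymes of the pathway, differed by 0.16 ± 0.06, 0.17 ± 0.06 and 0.18 ± 0.07 SE (edgeR adjusted p = 0.17, 0.178 and 0.225). Among 29 lipid handling genes, edgeR called 1, Plin4, 3 were higher and 4 lower at an unadjusted p under 0.05, and the median was -0.02. Abca1, the exporter of cholesterol to apolipoproteins, was 84.2, 75.3, 74.6, 75.1 and 68.6 CPM in controls and 53.8, 52.7, 57.3, 48 and 64.5 with exenatide, with no overlap (log2 -0.45 ± 0.13 SE, edgeR adjusted p = 0.113). DESeq2 called Abca1 lower (adjusted p = 0.0396). Fabp3, a fatty acid binding protein, differed by 0.41 ± 0.13 SE (edgeR adjusted p = 0.139) and Elovl6, a fatty acid elongase, by -0.26 ± 0.08 (adjusted p = 0.123).

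Among glial genes, those of homeostatic microglia, astrocytes and oligodendrocytes had negative medians, and edgeR called none with all 10 mice in the fit. Bulk tissue cannot tell fewer cells of a type from less RNA per cell. Of 14 homeostatic microglia genes, 13 had a negative log2 fold change and 8 were lower at an unadjusted p under 0.05, with a median of -0.16 and no call by edgeR or DESeq2. At that limit 8.45% of all genes were lower. The list's summed level had a median of 580 CPM in aged controls and 527 with exenatide. It was 538 in knockdown controls, 511 with rapamycin and 529 in young controls. P2ry12, the purinergic receptor of resting microglia, was 52.2, 53.1, 56.3, 57.1 and 51.5 CPM in controls and 33.1, 45.1, 49.1, 43.4 and 43.6 with exenatide. Its groups did not overlap, with exenatide 1 the lowest (log2 -0.33 ± 0.10 SE, edgeR adjusted p = 0.123, and 0.0493 without exenatide 3). Itgam and Csf1r, the latter chosen after its values were seen, were the other 2 members without overlap, where 1.41% of all genes were lower without overlap. Cx3cr1, the fractalkine receptor, differed by -0.24 ± 0.08 SE (adjusted p = 0.149). Without exenatide 1, 3 of the 14 were lower at an unadjusted p under 0.05, and 5 were without control 3 or control 4. The 15 tested genes of activated microglia had a median of 0.03, and none had an unadjusted p under 0.05. That median was -0.02 without exenatide 4, and -0.01 without control 2, without control 5 or with the length and GC trends removed. Clec7a and Cd68, of that list, differed by -0.55 ± 0.28 and -0.24 ± 0.12 SE (edgeR adjusted p = 0.336 and 0.312).

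Of 15 astrocyte genes, 4 were lower and none higher at an unadjusted p under 0.05, with a median of -0.07. Beside this and the cell type counts that follow, 8.45% of all genes were lower and 7.6% higher. Astrocyte genes summed to a median of 9550 CPM in aged controls and 9050 with exenatide. Their sum was 8910 in knockdown controls, 8730 with rapamycin and 8920 in young controls. Aqp4, the water channel of astrocyte endfeet, was 128 to 154 CPM in controls and 96.4 to 125 with exenatide, without overlap (log2 -0.31 ± 0.10 SE, edgeR adjusted p = 0.125). Slc1a2 and Slc1a3, the glutamate transporters, differed by -0.23 ± 0.07 and -0.25 ± 0.07 SE (adjusted p = 0.123 for each), and Slc1a2 was called without exenatide 3 (adjusted p = 0.0499). Of 18 oligodendrocyte genes, 3 were lower at an unadjusted p under 0.05, and the median was -0.05 (0.03 without control 1). Ugt8a, which makes galactosylceramide for myelin, differed by -0.37 ± 0.10 SE (edgeR adjusted p = 0.106), and DESeq2 called it lower (adjusted p = 0.0398). Of 18 endothelial genes, 4 were lower and 1 higher at an unadjusted p under 0.05, with a median of -0.10. The number lower was 0 without control 4 or exenatide 2, 1 without exenatide 4, and 2 without control 2, exenatide 1 or exenatide 3, and the median without control 4 was -0.05. Of 11 excitatory neuron genes, 2 were higher and 1 lower, with a median of 0.10. Emx1, a homeobox gene of the dorsal forebrain, differed by 0.59 ± 0.16 SE (edgeR adjusted p = 0.106) and Neurod6 by -0.34 ± 0.10 (adjusted p = 0.114), and DESeq2 called both (adjusted p = 0.0357 and 0.05).

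Interferon-stimulated genes had a median of -0.23. Of 30 tested, 27 had a negative log2 fold change and 4 were lower at an unadjusted p under 0.05 (8.45% of all genes were). None was called by edgeR or DESeq2. The number lower was 1 without control 1, control 5, exenatide 1 or exenatide 4, 2 without exenatide 2, and 8 without exenatide 3. The median was -0.13 without control 5 and -0.14 without exenatide 1. Ddx58, the RNA sensor RIG-I, was 10.1, 8.49, 9.64, 8.73 and 10.4 CPM in controls and 5.75, 6.92, 8.55, 6.18 and 8.44 with exenatide (log2 -0.40 ± 0.14 SE, edgeR adjusted p = 0.169). The groups overlapped by a narrow margin through exenatide 3. Ifit1, an inhibitor of viral translation, ranged from 4.01 to 10.8 CPM in controls and from 2.48 to 6 with exenatide.

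Blood RNA differed between the mice. Of 12 tested erythroid and blood genes, 11 had a positive log2 fold change and 4 were higher at an unadjusted p under 0.05 (7.6% of all genes were). The median was 0.51, and none was called. The neutrophil genes S100a8 and S100a9 were carried by 2 mice: S100a9 was 2.13, 0.552, 12.2, 8.15 and 1.14 CPM with exenatide, against 0.988 to 2.09 in controls. Slc4a1, the anion exchanger of red cells, was 0 to 0.269 CPM in controls and 0.0425 to 0.762 with exenatide. The summed level of the 12 genes was 209 to 280 CPM in controls and 264 to 293 with exenatide, and its part in the other results was not tested.

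Among the incretin receptors, Glp1r was near the limit of detection. It had 62, 13, 11, 10 and 11 counts in controls and 9, 5, 16, 3 and 17 with exenatide. The difference (log2 -1.15 ± 0.67 SE, edgeR adjusted p = 0.401) rested on control 1, and was -0.21 without it. Gipr, the receptor for the other incretin hormone, had 57 to 107 counts per library and differed by 0.02 ± 0.15 SE (adjusted p = 0.956). Gcgr, the glucagon receptor, had 0 to 3 counts, Gcg, which encodes GLP-1, had 0 to 5, and Gip had 0, so these were not tested. Of 32 genes of cyclic AMP signalling, 2 were higher and 3 lower at an unadjusted p under 0.05, with a median of -0.02 (0.03 with the length and GC trends removed). Those counts lie near the shares of all genes, 7.6% higher and 8.45% lower. Crem, a repressor of the cyclic AMP response, and Crebbp, a coactivator, differed by -0.32 ± 0.11 and -0.16 ± 0.06 SE (edgeR adjusted p = 0.167 for each). Of 25 neuropeptides and growth factors, 2 were higher and 4 lower, with a median of -0.01. Chgb and Chga, granins of secretory vesicles, differed by 0.32 ± 0.11 and 0.35 ± 0.12 SE (adjusted p = 0.162 and 0.167), and Igf1 by -0.26 ± 0.09 (adjusted p = 0.168).

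**Figure D4:**
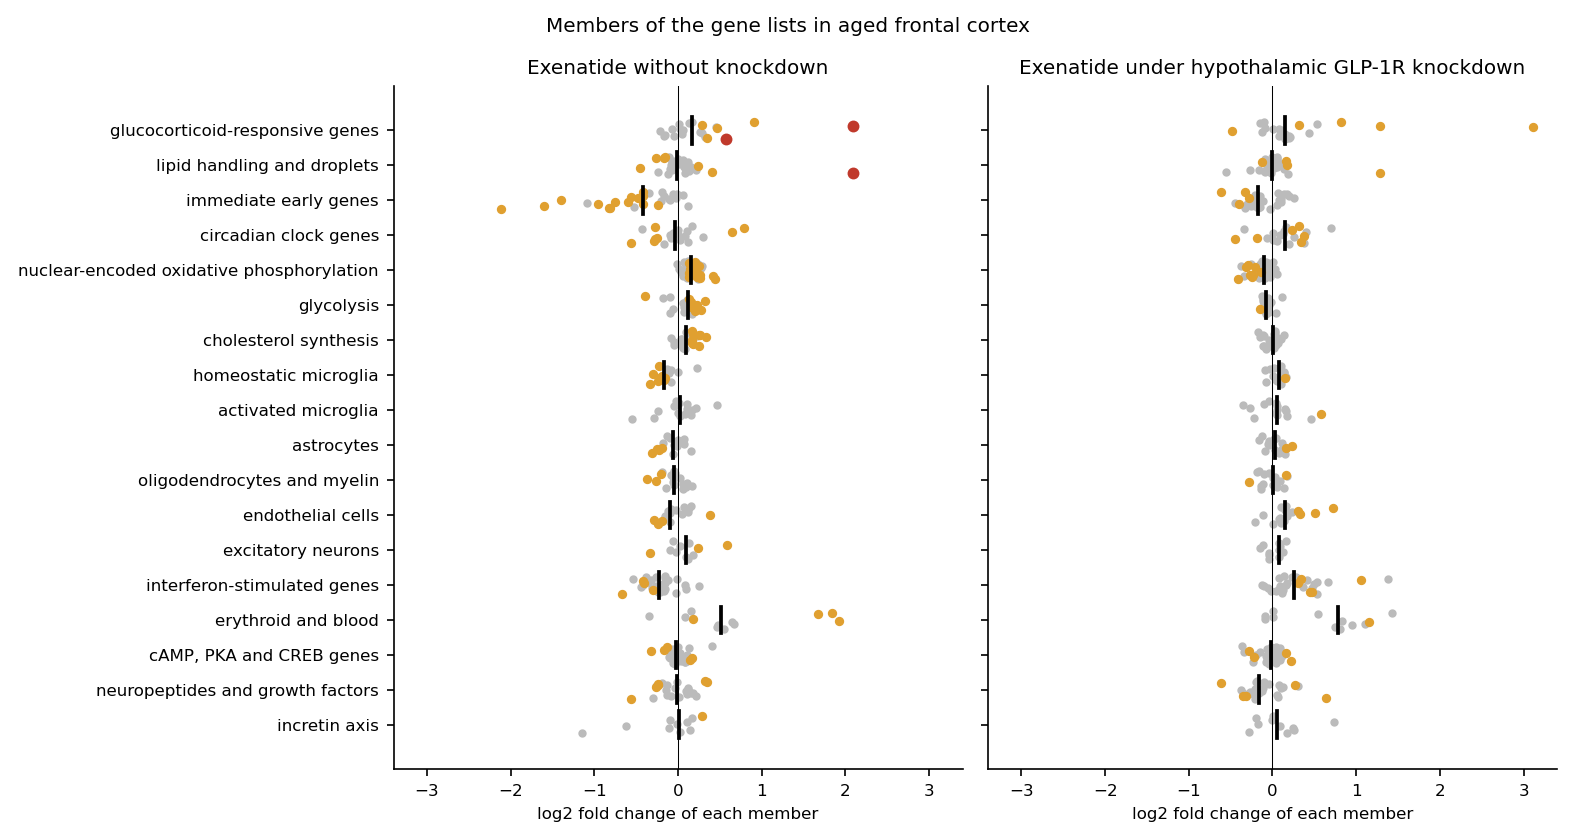
Log2 fold change of each tested member of 18 gene lists (points) for exenatide without knockdown (left) and under hypothalamic GLP-1R knockdown (right), with black bars at list medians. Orange points have an unadjusted p under 0.05 and red points an adjusted p under 0.05. The immediate early genes lie to the left of 0 (median -0.42 without knockdown, -0.18 with it). The oxidative phosphorylation genes change side (0.15 and -0.11), and their control groups differ (median sums of 4590 CPM without knockdown and 5090 with it).

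The study gave exenatide also to aged mice with hypothalamic GLP-1R knockdown, so the same drug contrast could be measured in 10 other animals. No gene was called by edgeR (0% of 18227 genes, 1555 with an unadjusted p under 0.05, or 8.53%), and DESeq2 called 1. Fkbp5 was 29.8, 28, 36.9, 29.7 and 26.1 CPM in knockdown controls and 32.1, 32.4, 29, 39.9 and 33.3 with exenatide. These groups overlapped, with the third knockdown control above 4 of the 5 exenatide mice (log2 0.15 ± 0.09 SE, edgeR adjusted p = 0.604). Plin4 was 3.43, 3.91, 9.46, 4.31 and 2.43 CPM in knockdown controls and 11.1, 9.73, 6.74, 20.7 and 9.32 with exenatide. It overlapped only through the third knockdown control (log2 1.28 ± 0.36 SE, edgeR adjusted p = 0.531). Nr2e1, Trib2 and Lrp8 differed by -0.13 ± 0.09, -0.18 ± 0.09 and -0.05 ± 0.05 SE.

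The test of the difference between the exenatide effects without and with knockdown called no gene by edgeR (2950 genes, 16.2%, had an unadjusted p under 0.05) and 11 by DESeq2, all lower. The difference was 0.42 ± 0.12 SE for Fkbp5 (edgeR adjusted p = 0.183), 0.81 ± 0.52 for Plin4 (0.438), -0.41 ± 0.13 for Nr2e1 (0.189), -0.33 ± 0.13 for Trib2 (0.222) and -0.22 ± 0.08 for Lrp8 (0.203). None of the 5 passed the test of a different response with knockdown. The oxidative phosphorylation genes had a median of -0.11 under knockdown, with 8 of 42 lower at an unadjusted p under 0.05 (3.65% of all genes), and a median difference of 0.26, with 24 of 42 higher at an unadjusted p under 0.05 (7.92% of all genes). The interferon-stimulated genes had a median of 0.26 under knockdown, with 5 of 30 higher (4.88% of all genes), and a median difference of -0.52, with 11 of 30 lower (8.26% of all genes). The control groups differed in both lists. Oxidative phosphorylation sums had medians of 4590 CPM in aged controls, 5110 with exenatide, 5090 in knockdown controls and 4810 in knockdown mice with exenatide. Interferon-stimulated sums had 291, 255, 210 and 248 CPM in the same order. The immediate early genes had a median of -0.18 under knockdown. Markers of tissue makeup differed in the same comparisons. Striatal genes were negative for 13 of 13 under knockdown (median -0.34) and positive for 13 of 13 in the difference (median 0.36). Fibroblast genes of vessels and meninges were positive for 13 of 14 under knockdown (median 0.30) and negative for 13 of 14 in the difference (median -0.39). Their part in the list values was not tested. Egr1 was 358, 382, 138, 133 and 90.8 CPM in knockdown controls and 87.9, 89.9, 203, 239 and 298 with exenatide, so both groups held high and low mice. The hypothalamic knockdown itself cannot be checked in cortex, where Glp1r was 0.0819 to 0.791 CPM in knockdown controls.

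Age was measured against the same aged controls, so the values are set side by side only. A high or low value in those controls moves both differences, in opposite directions. Aged and young controls differed in 1013 of 18227 genes (5.56%), of which 784 were higher (4.3%) and 229 lower (1.26%) with age. None of the 5 exenatide genes was called with age: the log2 difference of aged against young controls was -0.17 ± 0.09 SE for Fkbp5 (edgeR adjusted p = 0.255), -0.36 ± 0.40 for Plin4 (0.624), 0.26 ± 0.09 for Nr2e1 (0.0866), -0.18 ± 0.09 for Trib2 (0.237) and 0.00 ± 0.05 for Lrp8 (0.972). Soat1 and Lrch3 rose with age by 0.40 and 0.34 (edgeR adjusted p = 0.0027 and 0.00345) and stood at -0.38 and -0.33 with exenatide. Rapamycin mice, too, had means of 24 CPM of Soat1 and 61.6 of Lrch3, against 33 and 80.3 in aged controls. Cbx8 fell by 0.66 with age (adjusted p = 0.0142) and stood at 0.72 with exenatide. Abca1 rose with age by 0.52 (edgeR adjusted p = 0.0119). Clec7a, a receptor of activated microglia, rose with age by 2.11 (adjusted p = 0.000291).

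In the YA cohort, exenatide gave the same directions for the 5 genes at smaller sizes. No gene was called by edgeR (0% of 16772 genes, 2091 with an unadjusted p under 0.05, or 12.5%), while DESeq2 called 71. Fkbp5 was 36.3 ± 2.75 CPM (SD, n = 8) in YA controls and 43.2 ± 7.13 (SD, n = 8) with exenatide, a log2 difference of 0.25 ± 0.08 SE (edgeR adjusted p = 0.26). Plin4 was 5.58 ± 3.16 and 13.6 ± 7.89 CPM (SD, n = 8 each), a difference of 1.28 ± 0.40 SE (adjusted p = 0.264). Both genes overlapped between groups, Fkbp5 from 31.2 to 39.4 CPM in controls and from 36.4 to 53.4 with exenatide. Nr2e1, Trib2 and Lrp8 differed by -0.19 ± 0.08, -0.22 ± 0.06 and -0.12 ± 0.05 SE (adjusted p = 0.338, 0.212 and 0.378).

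The YA cortex shares no animal with the ST cortex. Of the 55 genes higher in ST at an unadjusted p under 0.001, 54 were tested in YA and 81.5% of these had a positive log2 fold change there. Of the 112 lower genes, 108 were tested and 10.2% had a positive one, against 48.3% of all YA genes. With the trends on length and GC content removed in both the ST and YA cohorts, these shares were 80.5% of 87 higher genes, 23% of 152 lower genes and 55.6% of all genes. Under knockdown in the ST cortex, in other mice of the same fit, 40% of the 55 higher genes and 42.9% of the 112 lower genes were positive, against 49.8% of all genes. Oxidative phosphorylation genes had a YA median of 0.12, with 22 of 42 higher at an unadjusted p under 0.05 (7.14% of all genes). The glucocorticoid-responsive genes had a median of 0.16, with 6 of 21 higher. Immediate early genes had a median of -0.02 in YA, and homeostatic microglia genes had one of -0.12, with 4 of 14 lower (5.33% of all genes).

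In the LT cohort of aged mice, 17 of 17688 genes (0.0961%) were called with sequencing batch in the fit, 3 higher (0.017%) and 14 lower (0.0791%), against 2634 in batch 1 alone and 807 in batch 3 alone. Fkbp5 was 62.3 ± 11.1 CPM (SD, n = 8) in LT aged controls and 60.2 ± 18.3 (SD, n = 8) with exenatide, a log2 difference of -0.05 ± 0.14 SE (edgeR adjusted p = 0.92). Plin4 was 45.3 ± 22.3 and 32 ± 16.5 CPM (SD, n = 8 each), a difference of -0.49 ± 0.34 SE (adjusted p = 0.606). Nr2e1, Trib2 and Lrp8 differed by 0.14 ± 0.08, -0.13 ± 0.07 and -0.12 ± 0.06 SE (adjusted p = 0.525, 0.452 and 0.462). The tables of the 3 cohorts were made separately, so CPM levels were not compared between them. Within sequencing batch 1 (5 and 5 mice) Fkbp5 differed by -0.11 ± 0.13 SE (edgeR adjusted p = 0.636) and Plin4 by -0.72 ± 0.35 (0.186), and Trib2 fell by 0.27 (adjusted p = 0.0112). Within batch 3 (3 and 3 mice) Fkbp5, Plin4 and Trib2 differed by 0.08 ± 0.31, 0.05 ± 0.70 and 0.13 ± 0.11 SE (edgeR adjusted p = 0.9, 0.978 and 0.475). The glucocorticoid-responsive genes had a median of -0.11 in LT, with 2 of 21 higher (5.11% of all genes) and 3 lower (7.23%) at an unadjusted p under 0.05. Of the genes higher and lower in ST at an unadjusted p under 0.001, 59.3% and 40% had a positive log2 fold change in LT, where 47.8% of all genes did.

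**Figure D5:**
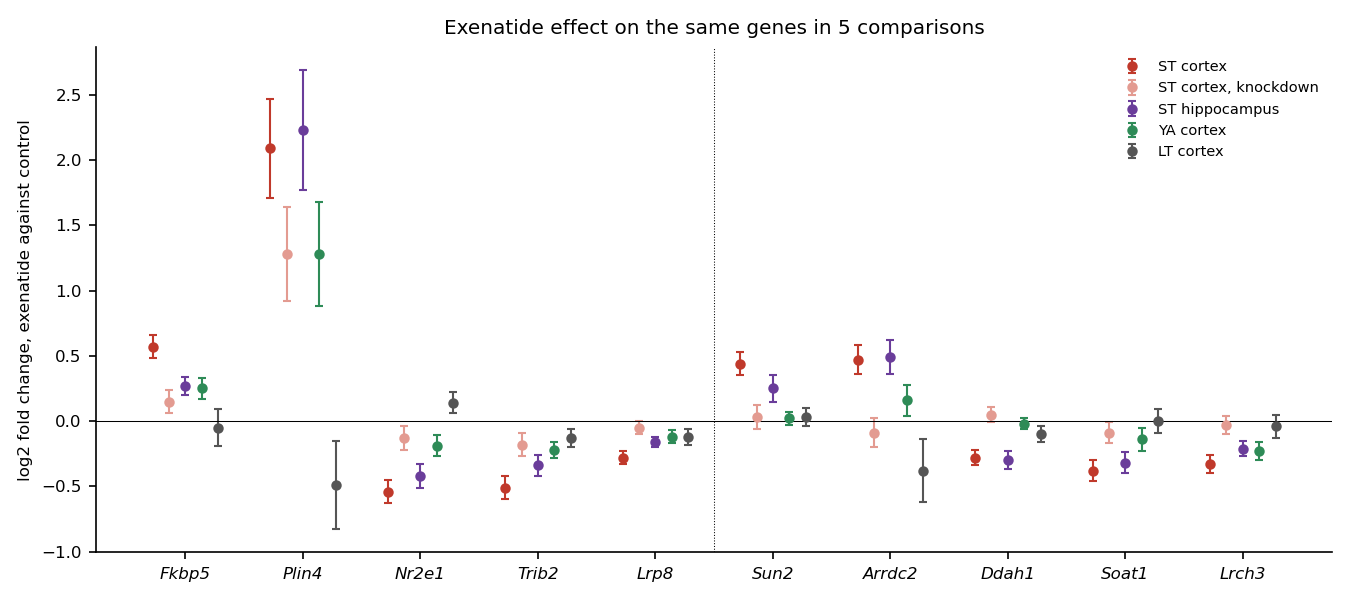
Log2 fold change of exenatide against control (points) with its standard error (bars) for the 5 called genes, left of the dotted line, and 5 genes just outside the threshold, in 5 comparisons: ST cortex, ST cortex under knockdown, ST hippocampus, YA cortex and LT cortex. Fkbp5 is at 0.57, 0.15, 0.27, 0.25 and -0.05, and Plin4 at 2.09, 1.28, 2.23, 1.28 and -0.49.

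Hippocampus of the same 10 mice allowed the exenatide effect to be compared between both brain regions with the mouse as a block. The effect differed for 1088 of 18281 genes (5.95%), 391 more positive (2.14%) and 697 more negative in cortex. The count was 1954 without exenatide 4, 708 without exenatide 1, 657 without exenatide 5, 543 without exenatide 3, 501 without exenatide 2, 486 without control 5 and 484 without control 2. Fkbp5 rose in both regions and more in cortex. In hippocampus it was 58.4, 55.7, 52.6, 63.5 and 61.8 CPM in controls and 72.3, 72.7, 68.7, 72.6 and 65.6 with exenatide, again without overlap (log2 0.27 ± 0.07 SE, edgeR adjusted p = 0.00275). The cortical effect exceeded it by 0.29 ± 0.07 SE (edgeR adjusted p = 0.0239). That call was lost without control 5, exenatide 1, exenatide 3 or exenatide 5 (adjusted p = 0.0586 to 0.0696). Plin4 rose by 2.23 ± 0.46 SE in hippocampus, and Nr2e1, Trib2 and Lrp8 fell by 0.42, 0.34 and 0.16 there, which were all called (28.6% of 18586 genes were). None of these 4 passed the test of a difference between regions (edgeR adjusted p = 0.31 to 0.636). Egr1 fell in hippocampus (log2 -0.996 ± 0.24 SE, edgeR adjusted p = 0.00258), where control 3 was again the lowest control, at 70.8 CPM against 132 to 157 in the others.

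The exenatide libraries of hippocampus were sequenced more deeply than the controls, with 30.1 M to 56.2 M counts in total against 22.7 M to 26.4 M, so depth and treatment cannot be told apart in that region. Bc1, a neuronal noncoding RNA of dendrites, rose by 1.90 ± 0.38 SE in hippocampus and stood at -1.19 ± 0.34 in cortex (edgeR adjusted p = 0.123), a difference of -3.06 ± 0.20 (adjusted p = 2.55e-08). Lars2, a mitochondrial leucyl-tRNA synthetase, rose by 1.15 ± 0.25 in hippocampus and was at -0.12 ± 0.14 in cortex. Doc2b, a calcium sensor of vesicle release, fell by 0.56 ± 0.13 in hippocampus and was at -0.02 ± 0.15 in cortex. Of the oxidative phosphorylation genes, 33 of 42 were called higher in hippocampus (14.2% of all genes) and 34 were higher at an unadjusted p under 0.05 (19.5%), with a median of 0.26, and 17 of 42 had an effect called more negative in cortex (3.81% of all genes).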

How the data were processed

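Polyadenylated RNA from frontal cortex was sequenced with NEBNext Ultra II libraries, per the labels' protocols. The build was GRCm39 and FastQC 0.11.9 was used, per the submitters' processing notes. No label or header used names the aligner or counter. The authors deposited estimated counts per gene for the ST and YA cohorts (7.47% of non-zero ST values were not whole, and all were rounded) and whole counts for the LT cohort. The kit does not mark strand, so overlapping antisense genes cannot be told apart.

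The ST fit held all 6 frontal cortex groups, with edgeR 4.0.16 (filterByExpr, TMM, quasi-likelihood F test, R 4.3.3) and Benjamini-Hochberg adjustment over all genes tested. The SE is the log2 fold change divided by the root of F. Levels are TMM-scaled CPM. LT had batch as a term, and the comparison with hippocampus had the mouse, named in the titles, as a block. The members and gene lists were chosen with earlier results of these data known. Genes named are those called, the next by p, and the members of each list with the smallest p (predicted gene names left out), plus others said to be chosen after their values were seen. Alternatives used limma 3.58.1, DESeq2 1.42.0, other filters and scaling, each mouse left out, and, chosen after seeing the data, removal of a length and GC trend fitted per library (a spline with 4 degrees of freedom). On data simulated for the ST contrast (18068 genes), the test recovered 38% of 1.25-fold, 76% of 1.5-fold and 100% of 2-fold changes. It also called 6 of 17868 unchanged genes. The 50 genes changed at each fold were drawn from those above 2 CPM. The simulated mice varied independently, with no single mouse apart and no length or GC trend, so the shares may not hold for the real data.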

Additional observations from a re-analysis of the deposited data

Results flagged for a closer look

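Single mice stood apart from the rest of their group for 8 of 180 groups of 5 values tested. Chance gives about 1 in 20, so the count is no larger than that share. Control 3 was the mouse for Egr1 (96 CPM, others 313 to 331), Bhlhe40 (115 CPM, others 131 to 137) and Dbp (63.4 CPM, others 28.1 to 36.8). Control 1 had 2.66 CPM of Glp1r (others 0.422 to 0.566), and control 5 had 22.6 CPM of Lpl, a lipase (others 29.3 to 30.5). Among exenatide mice, Egr1 was 122 CPM in exenatide 4 (others 80.9 to 88.2), Bdnf was 22 CPM in exenatide 3 (others 18.3 to 18.8), and Slc4a1 was 0.0425 CPM in exenatide 2 (others 0.566 to 0.762).

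The exenatide effect differed between cortex and hippocampus of the same mice for 12 of 90 named genes tested, beside 5.95% of all genes. Of these, 10 were named because of that difference, so the count is no result, and the others were Fkbp5 and Neurod2. The log2 effect was more positive in cortex by 0.29 for Fkbp5, 0.53 for Doc2b, 0.53 for Pak5, 0.49 for Lrrc58, 0.45 for Foxo3, 0.45 for Ccni and 0.26 for Neurod2. The call of Neurod2 (edgeR adjusted p = 0.0393) was lost with no replicate block (0.172) and in 8 of the 10 fits without 1 mouse (0.0501 to 0.105). The difference was -3.06 for Bc1, -1.26 for Lars2, -0.72 for Taf15, -0.81 for Pabpn1 and -0.84 for Morf4l1b. All hippocampal exenatide libraries were deeper than the control ones, so depth and treatment cannot be told apart there.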

How the results depend on the processing

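No gene called for exenatide changed direction in the alternatives run, but list medians near 0 changed sign in some (lists of clock, cAMP, lipid handling, incretin, neuropeptide, activated microglia and oligodendrocyte genes). The count of genes called with exenatide, 5, ranged from 1 to 307 over the fits without 1 mouse, and was 14 with the compared groups alone, 88 with the length and GC trends removed and 212 with DESeq2. Without the filter on low counts it was 4, of which 3 were shared. Under knockdown the count of 0 ranged from 0 to 1 without 1 mouse and was 1 with DESeq2, and the difference by knockdown gave 11 with DESeq2. The age count of 1013 ranged from 354 to 1325 without 1 mouse. The LT count of 17 was 0 with DESeq2 size factors in edgeR, 0 without the filter, 0 without the batch term, 2634 in batch 1 alone, 807 in batch 3 alone and 203 with DESeq2. The YA count of 0 was 2 without the filter and 71 with DESeq2. For the comparison with hippocampus, paired by mouse, the count of 1088 was 503 with no replicate block and 1757 without the filter, and ranged from 484 to 1954 without 1 mouse (486 without control 5, and 708, 501, 543 and 657 without exenatide 1, 2, 3 and 5). The causes were not tested. Depth limits Glp1r, with 3 to 62 counts per library.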

Other observations

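Proteasome genes mostly had small positive differences, while those of cytosolic ribosomal proteins did so only with the length and GC trends left in. Of 27 proteasome genes, 22 had a positive log2 fold change and 4 were higher at an unadjusted p under 0.05, with a median of 0.09 (0.04 with the length and GC trends removed) and none called by edgeR. In the YA cortex 26 of the 27 were positive and 13 were higher, with a median of 0.11. Of all genes, 7.6% were higher in the ST cortex and 7.14% in the YA cortex. Proteasome genes summed to a median of 1760 CPM in ST aged controls and 1860 with exenatide. Their sum was 1830 in knockdown controls, 1910 with rapamycin and 1900 in young controls. Of 44 cytosolic ribosomal protein genes, 35 were positive in the ST cortex and 3 higher, beside 7.6% of all genes, with a median of 0.05, and 43 were positive in the YA cortex. With the length and GC trends removed, 24 were positive in the ST cortex and 20 negative, with a median of 0.01, 1 higher and 3 lower. The summed level of the ribosomal protein genes had a median of 5250 CPM in ST aged controls and 5210 with exenatide. It was 5590 in knockdown controls, 6640 with rapamycin and 5280 in young controls.

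Slc7a11, the cystine and glutamate exchanger, and Dio2, the enzyme that activates thyroid hormone, were chosen after their values were seen. Slc7a11 differed by -0.67 ± 0.17 SE (edgeR adjusted p = 0.103) and Dio2 by -0.48 ± 0.11 (adjusted p = 0.0844), and both were called in the fit limited to the compared groups.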
